A study of Arabidopsis thaliana with 4 samples.

Results

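Seedlings of the ldl1/2 line of Arabidopsis thaliana, which is mutated in the histone demethylase genes LDL1 and LDL2, were compared with wild-type (WT) seedlings across all genes with a measurable level. A gene was kept where the larger of its 2 group means in the authors' deposited table was at least 1 RPKM (reads per kilobase of exon, corrected for the number of reads in the library), which left 18928 of 34262 genes. The series holds 4 genotypes in the Col-0 background, with 1 sample listed for each: WT, the deacetylase mutant hda6, ldl1/2, and the combined line hda6/ldl1/2. Plants were 14 days old, raised in long days at 22 °C, and TruSeq libraries were made from their total RNA. The sources used here name no alleles for ldl1/2, and the hda6 and hda6/ldl1/2 values given beside it come from tables that share the same WT group.

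LDL1 and LDL2 are flavin-dependent enzymes related to human LSD1, which remove methyl groups from lysine residues of histone H3. In Arabidopsis they are known, with their relative FLD, for keeping the floral repressor FLC low, and they can act in complexes with the histone deacetylase HDA6. Loss of such an enzyme leaves methyl marks that usually accompany transcribed chromatin.

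Both targeted transcripts fell in ldl1/2. LDL1 (AT1G62830, chr1:23264486-23267221) went from 4.86 RPKM in WT to 2.81 RPKM, with a false discovery rate (FDR) of 2.52e-05 and a log2 fold change at -0.79 in the authors' deposited table. LDL2 (AT3G13682, chr3:4478873-4481767) went from 1.43 to 0.632 RPKM, -1.17 in log2 (FDR 0.000182) in the authors' deposited table. Reads over both genes thus remained, and the sources used here do not say where in the genes the mutations lie. The relatives LDL3 (0.02) and FLD (0.02), HDA6 (0.10) and its partner MSI4 (0.17) lay within 0.2 of 0 in log2 with FDRs of at least 0.746 in the authors' deposited table. In the samples labelled hda6/ldl1/2, LDL1 (0.05) and LDL2 (-0.32, FDR 0.585) did not pass the FDR in the authors' deposited table, so comparisons with that label rest on the label alone. The gene next to LDL2, the F-box gene AT3G13680, which was looked at after its value was seen, went from 0.408 to 0.0339 RPKM in ldl1/2 -3.59 in log2 (FDR 0.000448) in the authors' deposited table. That gene lies under the level at which genes were kept, and its ldl1/2 mean corresponds to about 2.05 read pairs.

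Of the kept genes, 834 rose and 774 fell in ldl1/2 at an FDR under 0.05 in the authors' deposited table, which is 4.41% and 4.09% of them. Every ldl1/2 count for a list or family below is to be read beside these 2 shares. Most of these differences were modest, since the median log2 fold change of the genes that rose was 0.79 and that of the genes that fell was -0.70. A change of at least 2-fold on top of the FDR was reached by 260 higher genes (1.37%) and by 237 lower genes (1.25%). By size alone, 1.70% of kept genes were at least 2-fold higher and 1.46% at least 2-fold lower. Of the 321 genes higher by size, 133 had a WT mean under 1 RPKM. Of the 276 genes lower by size, 82 had an ldl1/2 mean under 1 RPKM. Such genes were kept only through the group in which they were high. The median over all kept genes was -0.0067, and 88.9% of them lay within 0.5 of 0 on the log2 scale. The authors' table gives only group means, so the spread between libraries cannot be shown gene by gene. The p-values imply a median standard error of 0.32 in log2 for genes of 1 to 2 RPKM, 0.18 from 2 to 10 RPKM and 0.12 from 10 to 50 RPKM. The spacing of low group means matched whole read pairs from 2 ldl1/2 libraries (40.2 and 42.6 M reads) and 3 WT libraries (48.6 to 51.6 M reads). These numbers of libraries were set before the depths were fitted, and no other numbers were compared. The match therefore does not settle how many libraries were averaged. No label says what these libraries were, so the p-values measure a spread that may be technical. Seedlings hold many cell types, and in such bulk samples fewer cells of a type and less RNA per cell cannot be told apart.

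**Figure D1:**
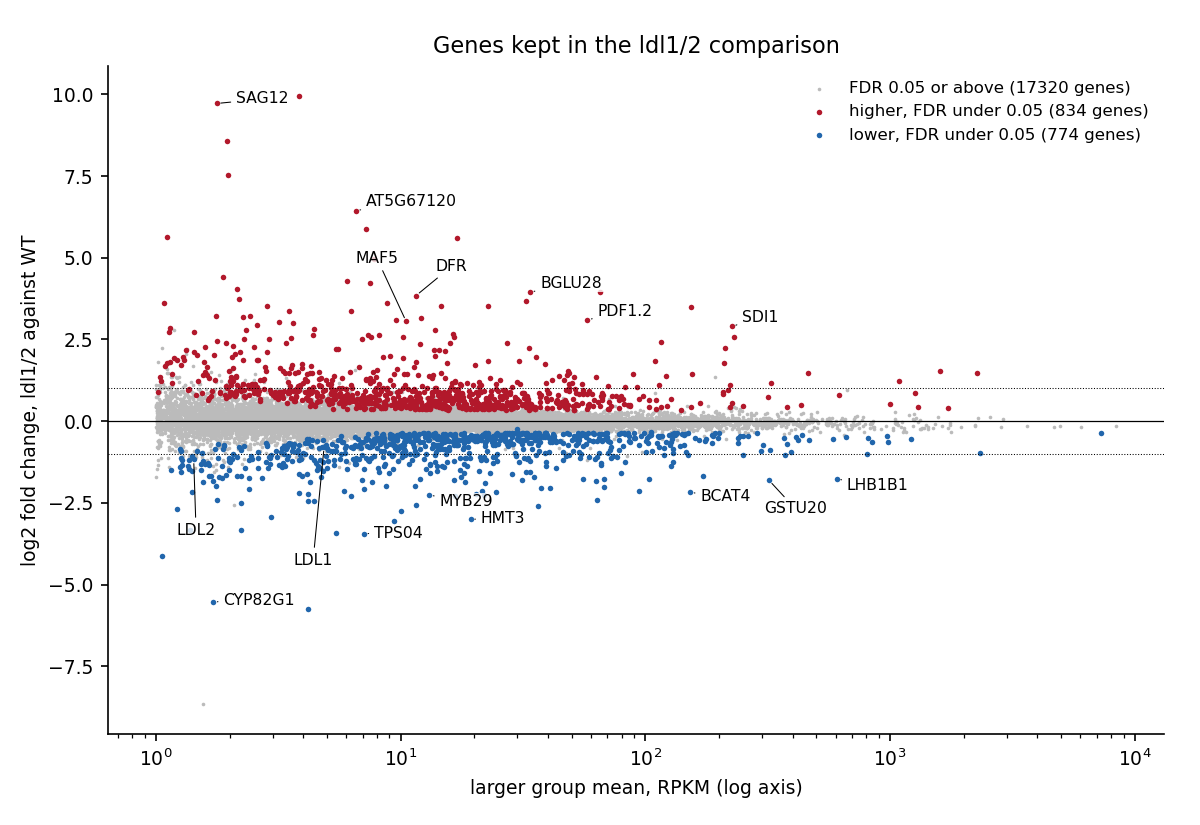
Each point is a kept gene, with the larger group mean in RPKM on a log axis and the deposited log2 fold change of ldl1/2 against WT on the other axis. Red and blue points are the 834 higher and 774 lower genes with an FDR under 0.05, and dotted lines mark a log2 fold change of 1 and -1.

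The 7 highest changes among genes of at least 5 RPKM are given first. AT5G67120, which encodes a RING/U-box protein, went from 0.0754 to 6.56 RPKM, 6.44 in log2 in the authors' deposited table. AT1G35183, which encodes another RING-finger protein, went from 0.122 to 7.23 RPKM (5.89 in the authors' deposited table). The uncharacterized AT1G27565 rose from 0.348 to 16.9 RPKM (5.60 in the authors' deposited table). AT1G77960 (4.97), annotated as a repressor ROX1-like protein, AT3G54730 (4.28), annotated as a transcription repressor, and the uncharacterized AT2G05655 (4.23) followed in the authors' deposited table. AT4G04223, a non-coding RNA, rose from 4.18 to 65.1 RPKM (3.96 in the authors' deposited table). The FDR of all 7 genes was deposited as 0. All 7 also rose in hda6/ldl1/2, at log2 values between 3.85 and 7.17 in the authors' deposited table. In hda6 the values ran from 1.11 for AT5G67120 (FDR 0.588) to 6.87 for AT3G54730 in the authors' deposited table.

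A further 3 genes whose WT mean was indistinguishable from 0 were singled out after their values were seen. SAG12, a cysteine protease gene used as a marker of leaf senescence, reached 1.77 RPKM in ldl1/2 (FDR 0.00293 in the authors' deposited table), while its WT mean was listed at 0. Against a floor of 3 read pairs over the WT group it was at least 58-fold higher. SAG12 was listed at 0 in hda6 and in hda6/ldl1/2 as well. The uncharacterized AT3G44006 (3.84 RPKM, at least 67.9-fold higher) and the non-coding AT2G01422 (1.95 RPKM, at least 39.0-fold higher) were raised in ldl1/2, and in hda6 their means were 3.66 and 2.91 RPKM in the authors' deposited table. Of 13 kept senescence genes, SAG12 included, 4 rose (30.8%) and 1 fell (7.69%), against 4.41% and 4.09% of all kept genes. SAG12, 1 of the 4, was kept only through its level in ldl1/2. RNS1, a ribonuclease induced in senescence and phosphate shortage, rose from 1.16 to 7.37 RPKM (2.63 in the authors' deposited table). SGR1, which starts chlorophyll breakdown, rose by 0.55, and HAI1, a phosphatase of abscisic acid signalling, fell by 1.70 in the authors' deposited table.

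Glucosinolates are sulfur-rich defence compounds of the cabbage family, built from methionine (the aliphatic kind) or tryptophan (the indole kind) and cut by myrosinases when tissue is damaged. The genes that make the aliphatic kind fell together in ldl1/2. Of 23 kept enzymes and transporters of this pathway 19 fell and none rose, against 4.09% lower genes among all kept, and the median log2 fold change was -1.60. Summed over the 23 genes, the level dropped from 1680 to 675 RPKM. Among the regulators, MYB29, which activates the aliphatic pathway, fell from 13.1 to 2.73 RPKM (-2.26, FDR deposited as 0) in the authors' deposited table. Its neighbour and paralog MYB76 fell from 1.75 to 0.448 RPKM (-1.97, FDR 4.80e-07), and MYB28, the leading activator, fell only from 35.4 to 26.2 RPKM (-0.44, FDR 0.00434) in the authors' deposited table. The indole regulators MYB34 (-0.11, FDR 1.00) and MYB51 (-0.34, FDR 0.518) did not pass the FDR in the authors' deposited table.

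The promoters of MYB29 and of the pathway genes BCAT4 and MAM1 are shown as the 250 bases before the annotated gene start (RefSeq TAIR10.1, written along the gene's strand), with capitals on the sulfur-response letters GAGAC or their complement GTCTC.
MYB29 (chr5:2446419-2446668, + strand): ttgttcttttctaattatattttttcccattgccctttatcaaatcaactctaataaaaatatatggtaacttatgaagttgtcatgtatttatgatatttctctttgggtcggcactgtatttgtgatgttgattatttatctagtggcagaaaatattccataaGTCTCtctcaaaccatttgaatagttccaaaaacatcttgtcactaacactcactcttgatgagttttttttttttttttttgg
BCAT4 (chr3:6849583-6849832, - strand): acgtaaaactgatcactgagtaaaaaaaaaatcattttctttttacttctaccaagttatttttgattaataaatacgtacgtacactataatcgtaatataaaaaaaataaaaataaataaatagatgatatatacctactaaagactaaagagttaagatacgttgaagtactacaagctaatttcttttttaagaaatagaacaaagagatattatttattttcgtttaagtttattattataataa
MAM1 (chr5:7702791-7703040, + strand): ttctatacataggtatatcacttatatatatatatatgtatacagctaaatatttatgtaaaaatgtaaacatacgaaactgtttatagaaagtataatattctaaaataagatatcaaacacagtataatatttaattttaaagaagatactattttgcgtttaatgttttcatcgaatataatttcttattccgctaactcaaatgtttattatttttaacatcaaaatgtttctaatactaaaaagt
None of the letters searched for was found in the BCAT4 and MAM1 windows.

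The fall covered each stage of aliphatic synthesis. BCAT4, which removes the amino group of methionine to start chain elongation, went from 153 to 33.6 RPKM (-2.18 in the authors' deposited table). MAM1, the condensing enzyme of the elongation cycle, went from 172 to 53.3 RPKM (-1.69), and MAM3, its neighbour and close copy, from 40.7 to 9.85 RPKM (-2.05) in the authors' deposited table. Reads of such close copies may be shared between them, so their separate values are uncertain. The isomerase subunits IPMI1 (-1.77) and IPMI2 (-2.03), the dehydrogenase IMD1 (-1.78) and the plastid importer BASS5 (-1.88) fell by similar amounts in the authors' deposited table. The large isomerase subunit IIL1, which also serves leucine synthesis, fell less, from 187 to 118 RPKM (-0.66 in the authors' deposited table). IMD3, the paralog of IMD1 for leucine synthesis, stayed at 34.1 and 33.8 RPKM (-0.01, FDR 1.00) in the authors' deposited table. In core synthesis CYP79F1 (63.1 to 17.6 RPKM, -1.85) and CYP79F2 (12.7 to 4.65 RPKM, -1.45), which form the aldoximes, fell in the authors' deposited table. CYP83A1 (-1.03), the glutathione transferases GSTF11 (-2.22) and GSTU20 (-1.81) and the sulfotransferases SOT17 (-1.29) and SOT18 (-1.24) also fell in the authors' deposited table. Side-chain oxidation was split. FMO GS-OX1 (-1.86) and FMO GS-OX3 (-1.60) fell, while FMO GS-OX2 (0.12), FMO GS-OX4 (0.07) and FMO GS-OX5 (0.18) did not pass the FDR in the authors' deposited table. These flavin monooxygenases are close copies and may share reads.

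Indole glucosinolate and shared enzymes moved less, with 7 of 12 kept genes lower, none higher and a median of -0.57. CYP79B2 (33.8 to 14.5 RPKM, -1.22) and CYP79B3 (18.1 to 7.27 RPKM, -1.32), the entry enzymes from tryptophan, fell most in the authors' deposited table. The shared C-S lyase SUR1 (-0.71) and the glucosyltransferase UGT74B1 (-0.72) also fell in the authors' deposited table. CYP83B1, which commits to the indole branch, went from 135 to 100 RPKM (-0.43) but did not pass the FDR (0.121) in the authors' deposited table. On the breakdown side the myrosinases TGG1 (0.17) and TGG2 (0.22) did not pass, while the myrosinase-binding proteins MBP1 (3.32 to 11.6 RPKM, 1.81) and MBP2 (1.45) and the nitrile-specifier NSP5 (100 to 223 RPKM, 1.12) rose in the authors' deposited table. ESM1, which shifts breakdown towards isothiocyanates, fell from 371 to 182 RPKM (-1.03 in the authors' deposited table). In hda6, where 4.38% of kept genes rose and 4.31% fell, none of the aliphatic enzymes fell and 1 rose, with a median of 0.11. In hda6/ldl1/2, where 9.59% rose and 7.82% fell, 1 fell and 8 rose, with a median of 0.26. The difference between the comparisons was not tested.

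**Figure D2:**
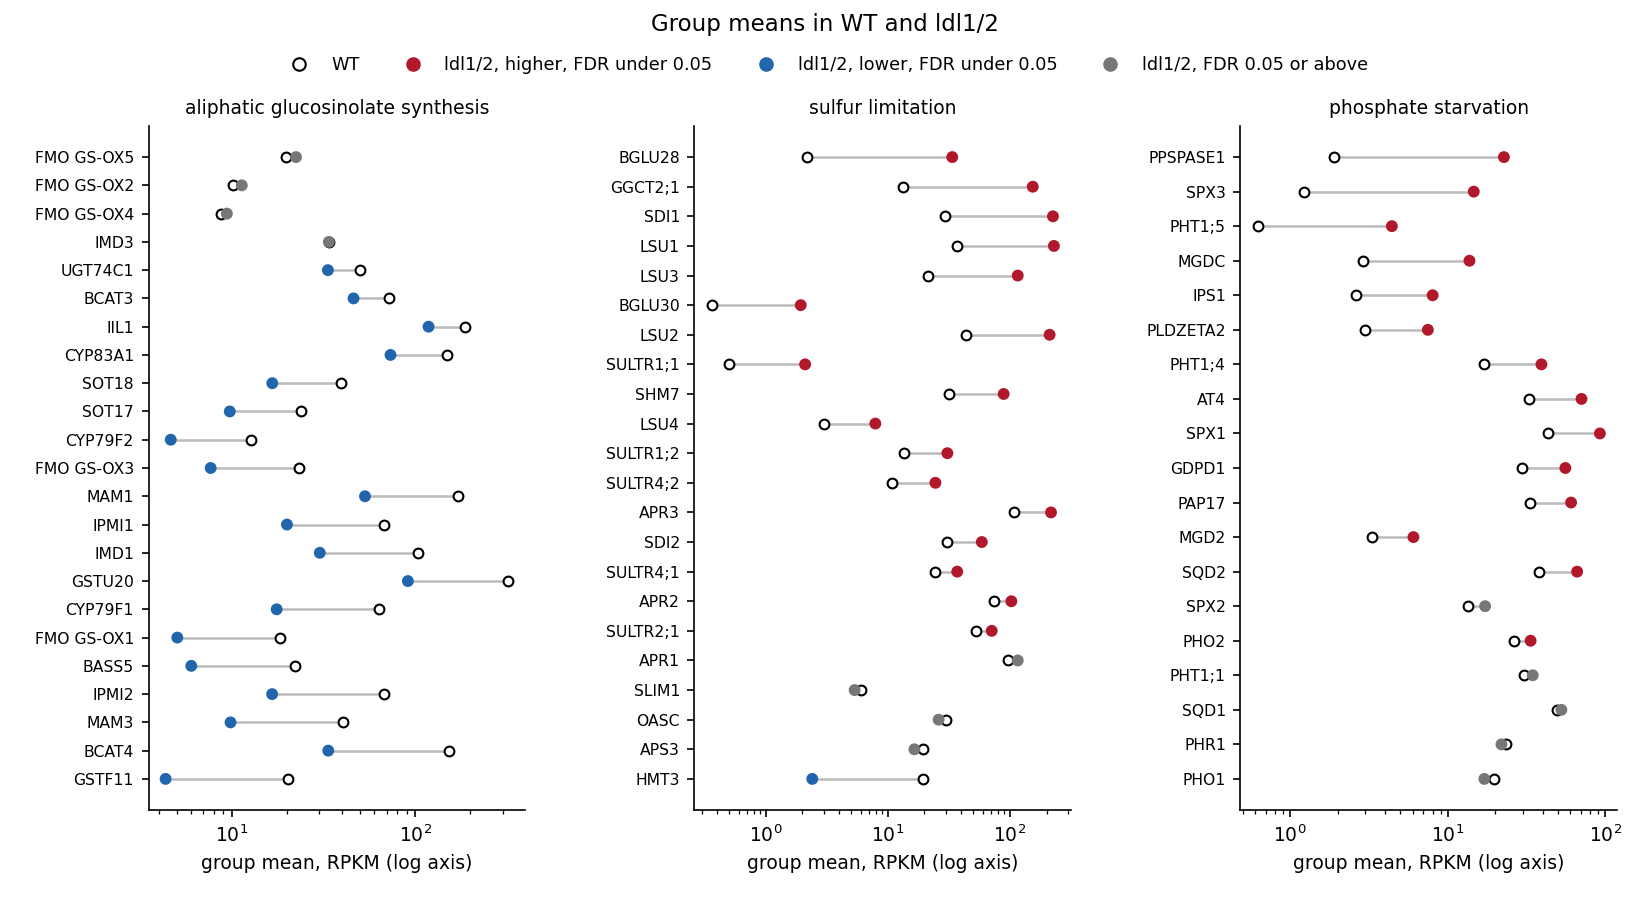
Group means in RPKM (log axis) for the kept members of 3 lists, with WT as open circles and ldl1/2 as filled circles coloured by the deposited FDR. Of the aliphatic glucosinolate genes 19 lie to the left of WT in blue, while 17 of 22 sulfur genes and 14 of 19 phosphate genes lie to the right in red.

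Plants short of sulfate raise sulfate transporters, the reductase that makes sulfite, and a set of LSU and SDI proteins, and they release sulfur from stores such as glucosinolates and glutathione. In ldl1/2 17 of 22 kept genes of this response rose and 1 fell, against 4.41% higher genes among all kept, with a median log2 fold change of 1.15. BGLU28, a beta-glucosidase of sulfur-starved plants, rose from 2.19 to 33.8 RPKM (3.95 in the authors' deposited table). GGCT2;1, which degrades glutathione, rose from 13.4 to 154 RPKM (3.49), and SDI1, which is known to hold back the glucosinolate regulator MYB28, rose from 29.4 to 226 RPKM (2.90) in the authors' deposited table. All 4 LSU genes rose, LSU1 from 37.2 to 230 RPKM (2.59) and LSU2 from 43.9 to 212 RPKM (2.24) in the authors' deposited table. LSU3 rose by 2.41 and LSU4 by 1.35 in the authors' deposited table. These are 2 pairs of neighbouring close copies whose reads may be shared.

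Among the sulfate transporters, the root uptake carriers SULTR1;1 (0.497 to 2.1 RPKM, 2.05) and SULTR1;2 (13.6 to 30.8 RPKM, 1.15) rose in the authors' deposited table. The vacuolar exporters SULTR4;1 (0.58) and SULTR4;2 (1.15) and the vascular SULTR2;1 (0.38) rose as well in the authors' deposited table. The adenylylsulfate reductases APR3 (109 to 218 RPKM, 0.96) and APR2 (0.43) rose, and APR1 (0.23, FDR 0.359) did not pass in the authors' deposited table. SLIM1, the transcription factor known to drive this response, had 6.0 RPKM in WT and 5.36 RPKM in ldl1/2 (-0.16, FDR 0.861 in the authors' deposited table). The exception was HMT3, which makes methionine from S-methylmethionine, and which fell from 19.3 to 2.41 RPKM (-3.0, FDR deposited as 0) in the authors' deposited table. APS-kinase 2 (AKN2), which activates sulfate for the last step of glucosinolate synthesis and was named after its value was seen, fell from 72.3 to 32.8 RPKM (-1.14 in the authors' deposited table). In hda6 none of the sulfur genes rose and 5 fell, with SDI1 at -1.71 and LSU1 at -1.58 in the authors' deposited table. In hda6/ldl1/2 10 of 20 kept sulfur genes rose and none fell, against 9.59% higher and 7.82% lower among all kept genes there. BGLU28 had 2.17 and SDI1 0.93 in hda6/ldl1/2 in the authors' deposited table.

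Phosphate starvation is read by SPX proteins and the factor PHR1, whose targets carry the letters GNATATNC, and it raises phosphate carriers, phosphatases and enzymes that replace phospholipids. Of 19 kept genes 14 rose in ldl1/2 and none fell, against 4.41% higher genes among all kept, and the median log2 fold change was 0.88. PPSPASE1, a pyrophosphatase, rose from 1.90 to 22.7 RPKM (3.54), and SPX3 rose from 1.22 to 14.6 RPKM (3.54), with both FDRs deposited as 0 in the authors' deposited table. Among the carriers PHT1;5 (0.621 to 4.42 RPKM, 2.83) and PHT1;4 (17.1 to 39.2 RPKM, 1.17) rose, and PHT1;1 (0.16, FDR 1.00) did not pass in the authors' deposited table. The galactolipid synthases MGDC (2.19) and MGD2 (0.83), the sulfolipid synthase SQD2 (0.77) and the phospholipase PLDZETA2 (1.32) rose in the authors' deposited table. So did the acid phosphatase PAP17 (0.83), the glycerophosphodiesterase GDPD1 (0.88) and SPX1 (43.2 to 92.2 RPKM, 1.06) in the authors' deposited table. The non-coding RNAs AT4 (32.7 to 70.4 RPKM, 1.07) and IPS1 (1.56, FDR 0.0458), which sequester miR399, rose too in the authors' deposited table. PHR1 itself (-0.09, FDR 1.00) and the exporter PHO1 (-0.21, FDR 0.880) did not pass in the authors' deposited table. In hda6 1 of 19 kept phosphate genes rose and 2 fell, and in hda6/ldl1/2 2 of 19 rose and 4 fell, with medians of -0.26 and -0.15. The shares over all kept genes were 4.38% higher and 4.31% lower in hda6, and 9.59% and 7.82% in hda6/ldl1/2.

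The promoters of SPX3 and PPSPASE1, chosen after their values were seen, show the letters GNATATNC (and GAGAC) in capitals within the 250 bases before the gene start.
SPX3 (chr2:18606160-18606409, + strand): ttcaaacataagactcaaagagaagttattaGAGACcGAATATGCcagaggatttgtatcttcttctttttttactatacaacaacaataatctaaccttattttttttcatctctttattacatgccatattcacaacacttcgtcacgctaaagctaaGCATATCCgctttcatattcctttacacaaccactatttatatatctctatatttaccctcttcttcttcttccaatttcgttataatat
PPSPASE1 (chr1:27466349-27466598, - strand): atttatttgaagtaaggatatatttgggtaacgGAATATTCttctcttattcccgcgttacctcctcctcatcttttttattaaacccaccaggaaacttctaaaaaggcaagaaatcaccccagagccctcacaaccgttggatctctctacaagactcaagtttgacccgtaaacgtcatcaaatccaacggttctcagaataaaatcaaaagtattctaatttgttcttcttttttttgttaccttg
Over windows of 250 bases before to 50 bases after the start and on both strands, GNATATNC was found in 9 of the 19 kept phosphate genes and in 6.22% of 33221 promoters. Of the 254 genes higher by both rules that have a promoter window 13.4% held it (95% exact binomial interval 9.45 to 18.2%), against 6.33% of the 237 lower genes (3.59 to 10.2%) and 6.26% of all kept genes. GAGAC was found in 37.8% of the higher, 31.2% of the lower, 32.2% of the kept and 33.2% of all promoters, and in 8 of the 22 sulfur genes. The motif GCCGCC was found in 1.57% of the higher and 2.53% of the lower genes, against 2.63% of kept and 2.62% of all genes, and AAATATCT in 8.66% and 8.02%, against 6.04% and 5.30%. These matches describe letters only, and the intervals cover counting error only.

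Genes of iron shortage moved the other way. Of 22 kept members 7 fell (31.8%) and none rose, with a median of -0.32. Among all kept genes 4.41% rose and 4.09% fell, and the other counts in this paragraph stand beside the same shares. The peptides that signal iron shortage fell together, IMA1 from 7.45 to 3.18 RPKM (-1.23), IMA2 from 6.49 to 2.72 RPKM (-1.26) and IMA3 from 18.5 to 8.53 RPKM (-1.12) in the authors' deposited table. The IMA3 gene overlaps CYP71A13, which fell by 2.75 in the authors' deposited table, and reads of the 2 genes may be shared. BHLH101, a factor of the same response, fell from 1.4 to 0.482 RPKM (-1.54), and the phloem transporter OPT3 fell by 0.53 in the authors' deposited table. The regulators PYE (-0.51) and BTS (-0.36) also fell in the authors' deposited table. In hda6 9 of 23 kept iron genes rose and 1 fell, against 4.38% and 4.31% of all kept genes there. Of 15 kept nitrate genes 5 fell and none rose, with a median of -0.18. The nitrate reductases NIA1 (66.1 to 27.4 RPKM, -1.27) and NIA2 (301 to 181 RPKM, -0.73), the nitrite reductase NIR1 (-0.41) and the glutamate synthase GLT1 (-0.52) fell in the authors' deposited table. BT2, a nitrate- and sugar-responsive scaffold protein, fell from 79.7 to 26.5 RPKM (-1.59 in the authors' deposited table). Markers of darkness and sugar starvation fell in 6 of 10 kept cases, with DIN11 (-1.46), SEN1 (-1.43) and DIN10 (76.8 to 36.3 RPKM, -1.08) lowest in the authors' deposited table. Only BGLU30 of that list rose, from 0.361 to 1.94 RPKM (2.4 in the authors' deposited table), and it is counted in the sulfur list as well. Of 22 starch and sugar genes 2 rose and 2 fell (9.09% each). The starch synthase GBSS1 (1.28) and the pyrophosphorylase subunit APL3 (1.17) were higher in the authors' deposited table.

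Anthocyanins are red pigments made by a branch of flavonoid synthesis under the MYB factors MYB75 and MYB90, with MYBL2 and the LBD factors as brakes. Late anthocyanin genes rose steeply from low WT levels, 7 of 8 kept members being higher and none lower, with a median of 3.16 (1.60 with a pseudocount of 1 RPKM). Among all kept genes 4.41% were higher. Members under 1 RPKM in WT, DFR and LDOX among them, were kept only through ldl1/2. The count and the median therefore rest partly on members kept because of their rise. DFR, the first enzyme of the branch, rose from 0.806 to 11.6 RPKM (3.84, FDR 2.83e-13) in the authors' deposited table. LDOX, the next enzyme, rose from 0.714 to 8.83 RPKM (3.63), and the vacuolar carrier protein GSTF12 rose from 1.12 to 9.61 RPKM (3.10) in the authors' deposited table. The decorating enzymes UGT79B1 (3.52), 5MAT (3.22) and UGT75C1 (1.96) rose in the authors' deposited table. UGT78D1, which acts on flavonols, rose by 0.45 and UGT78D2 (0.32, FDR 0.101) did not pass in the authors' deposited table. Early flavonoid enzymes moved little, 3 of 11 kept members being higher with a median of 0.21, led by 4CL3 (0.50) and FLS1 (0.50) in the authors' deposited table.

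Of the activators, MYB75 rose from 0.653 to 3.41 RPKM (2.39, FDR 5.36e-07) and MYB90 from 1.68 to 10.2 RPKM (2.56, FDR 1.12e-09) in the authors' deposited table. Their bHLH partner TT8 lay below the level at which genes were kept, at 0.136 and 0.887 RPKM (2.70, FDR 0.000131 in the authors' deposited table). MYB114, also below that level, had a ratio of 21.8 (FDR 0.00981 in the authors' deposited table) with a counting interval of 6.77 to 1490, since its WT mean stood for about 1.48 read pairs. The partners EGL3 (-0.06) and TTG1 (-0.09) did not pass in the authors' deposited table. Of 6 kept repressors 4 fell, MYBL2 from 21.2 to 9.91 RPKM (-1.10), LBD39 from 33.2 to 15.2 RPKM (-1.12), LBD37 by 0.64 and LBD38 by 0.58 in the authors' deposited table. CPC (0.35, FDR 0.889) and SPL9 (0.07, FDR 1.00) did not pass in the authors' deposited table. DFR (3.38) and LDOX (3.30) rose in hda6/ldl1/2 too in the authors' deposited table. Both also rose in hda6, DFR by 1.53 (FDR 0.0321) and LDOX by 1.67 (FDR 0.00704), in the authors' deposited table. Late anthocyanin genes were higher in 5 of 6 kept cases in hda6 and in 7 of 8 in hda6/ldl1/2. None was lower in either, and the medians were 1.27 and 2.92. MYB90 stood at -2.55 in hda6 (FDR 2.98e-06) and at 0.60 in hda6/ldl1/2 (FDR 0.437) in the authors' deposited table.

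The promoters of DFR and LDOX are shown because both genes rose more than 10-fold from a WT level under 1 RPKM, with capitals on CACGTG, the G-box read by bHLH and bZIP factors, and on GAGAC or its complement.
DFR (chr5:17166033-17166282, - strand): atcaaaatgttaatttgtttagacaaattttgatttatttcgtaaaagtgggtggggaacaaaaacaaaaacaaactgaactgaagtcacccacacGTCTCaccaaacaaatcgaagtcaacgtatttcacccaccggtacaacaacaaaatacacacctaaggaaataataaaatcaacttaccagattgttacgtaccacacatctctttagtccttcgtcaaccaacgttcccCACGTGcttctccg
LDOX (chr4:12006210-12006459, - strand): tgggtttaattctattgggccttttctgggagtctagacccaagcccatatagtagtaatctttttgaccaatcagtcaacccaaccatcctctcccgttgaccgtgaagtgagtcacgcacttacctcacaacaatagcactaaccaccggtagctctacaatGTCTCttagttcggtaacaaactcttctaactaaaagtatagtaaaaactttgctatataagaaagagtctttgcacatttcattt
CACGTG was found in 2 of the 8 kept late anthocyanin genes, in 10.6% of the higher genes, in 8.02% of the lower genes, in 8.71% of kept genes and in 7.03% of all promoters.

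**Figure D3:**
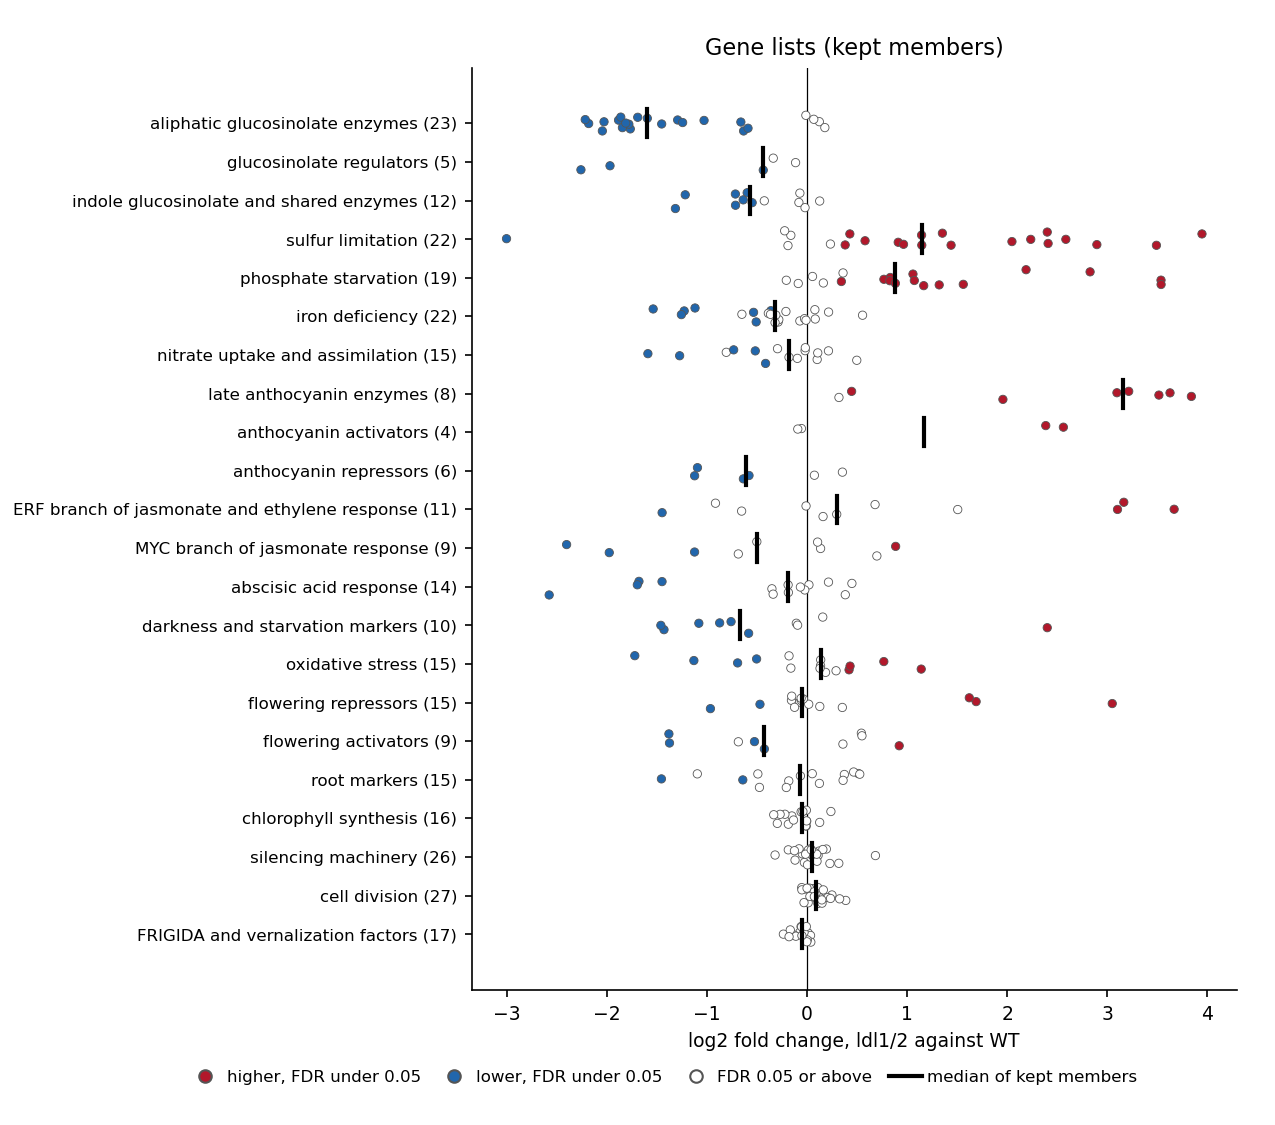
Deposited log2 fold changes of ldl1/2 against WT for the kept members of 22 gene lists, with the number of kept members in brackets and the median as a black bar. Filled points have an FDR under 0.05, and the lists of silencing machinery, cell division, chlorophyll synthesis and FRIGIDA or vernalization factors hold none.

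Jasmonate acts through a MYC branch, which answers wounding, and an ERF branch shared with ethylene, whose outputs are the PDF1.2 defensins. Of 11 kept genes of the ERF branch 3 rose and 1 fell, and the 3 that rose were copies of PDF1.2. PDF1.2 rose from 6.56 to 58 RPKM (3.10, FDR 1.16e-05), PDF1.2c from 2.47 to 32.5 RPKM (3.67, FDR 6.30e-08) and PDF1.2b from 1.35 to 12.1 RPKM (3.17, FDR 6.09e-05) in the authors' deposited table. These are near-identical copies, so reads may be split between them. Other outputs of this branch, HEL (193 to 242 RPKM, 0.30, FDR 0.784) and HCHIB (-0.01, FDR 1.00), and the activators ERF1 (-0.65, FDR 0.771) and ORA59 (0.16, FDR 1.00) did not pass in the authors' deposited table. PDF1.3 (0.68), PDF1.4 (-0.92, FDR 0.0613) and PDF1.5 (1.51, FDR 0.0544) did not pass either in the authors' deposited table. In the MYC branch 1 of 9 kept genes rose and 3 fell. MYC2, its central factor, fell from 11.4 to 2.91 RPKM (-1.98, FDR 0.00254), and its wound-induced output VSP2 rose from 110 to 208 RPKM (0.89, FDR 0.00154) in the authors' deposited table. TAT3, a tyrosine aminotransferase, fell from 63.7 to 12 RPKM (-2.40 in the authors' deposited table). The repressors JAZ1 (-0.68) and JAZ9 (-0.71) fell in the authors' deposited table.

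The lowest genes of at least 5 RPKM, and CYP82G1 below that level, follow here. TPS04, which makes geranyllinalool, fell from 7.08 to 0.653 RPKM (-3.44), and CYP82G1, which turns it into the volatile TMTT, fell from 1.71 to 0.0371 RPKM (-5.53, FDR 3.05e-10) in the authors' deposited table. NATA1, an ornithine acetyltransferase, fell by 3.06, and BAP2, an inhibitor of cell death, fell by 3.43 in the authors' deposited table. Of 6 kept terpene synthases 2 rose and 2 fell. Among 9 kept genes of defence outputs and camalexin 2 fell and 1 rose, with a median of -0.18, the lower ones being the camalexin enzymes CYP71A13 (-2.75) and PAD3 (24 to 11.1 RPKM, -1.11) in the authors' deposited table. ELI3-2, an alcohol dehydrogenase (-2.28), AIG1, an avirulence-induced GTPase (-2.25), the PR1-type protein AT4G33720 (36.6 to 6.0 RPKM, -2.61) and the transporter ABCG40 (-2.58) were also among the 12 lowest genes of at least 5 RPKM in the authors' deposited table. In hda6, against the same WT, TPS04 had -8.23, CYP71A13 -9.24, ELI3-2 -9.40 and TAT3 -7.85 in the authors' deposited table. Salicylic and pipecolic acid genes as a list moved little in ldl1/2, with 1 of 17 kept members higher and 1 lower and a median of 0.09. ALD1, which makes the pipecolic acid precursor, fell from 3.83 to 0.833 RPKM (-2.20), and WRKY54 rose from 4.85 to 13.0 RPKM (1.39) in the authors' deposited table. The same list had 13 lower members and a median of -1.13 in hda6.

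Among 74 kept ERF and DREB factors 13 fell (17.6%) and 2 rose (2.70%), against 4.09% lower and 4.41% higher among all kept genes. ORA47 (6.24 to 1.28 RPKM, -2.29), ERF13 (-1.69), ERF6 (13.1 to 4.35 RPKM, -1.60) and ERF104 (43.2 to 15.8 RPKM, -1.45) were lowest in the authors' deposited table. ERF5, the paralog of ERF6, fell by 1.37 in the authors' deposited table. The zinc-finger factors ZAT10 (35.1 to 10.6 RPKM, -1.72) and ZAT12 (-1.35) fell in the authors' deposited table. ZAT12 was the 1 lower gene of 11 kept cold-response genes (9.09%), of which 1 rose (9.09%). ACS6, an enzyme of ethylene synthesis, fell from 13.9 to 5.79 RPKM (-1.26 in the authors' deposited table). ACS6 was the 1 gene to pass of 16 in the ethylene list (6.25%), near the 4.09% lower among all kept genes. WRKY40 (-1.02) and the calmodulin-like CML37 (-1.73) fell in the authors' deposited table. Of 56 WRKY factors 4 were higher (7.14%) and 2 lower (3.57%), and of 49 calmodulin-like genes 2 were higher (4.08%) and 3 lower (6.12%). These shares are near the 4.41% higher and 4.09% lower among all kept genes. Of 14 abscisic acid genes 4 fell (28.6%) and none rose. Among the 4 were NCED3, which makes the hormone (1.65 to 0.516 RPKM, -1.68), and CYP707A3, which breaks it down (-1.45) in the authors' deposited table. ZAT10 (-2.98), ERF6 (-2.41) and ORA47 (-2.13) fell in hda6/ldl1/2 as well, and in hda6 they had -0.49, -0.41 and -0.52 in the authors' deposited table. The oxidative stress list was split, with 4 of 15 kept members higher, among them UPOX (1.14), and 4 lower in the authors' deposited table.

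SAUR proteins are small proteins that promote cell expansion, and of 50 kept SAUR genes 13 fell and none rose, with a median of -0.47. SAUR19 went from 1.21 to 0.190 RPKM (-2.68) and SAUR22 from 1.56 to 0.430 RPKM (-1.86) in the authors' deposited table. The better expressed AT2G21210 went from 34.4 to 18.9 RPKM (-0.86 in the authors' deposited table). Genes of this family stand in tandem arrays of near-identical copies, so reads may be shared. A further 29 family members lay below the level at which genes were kept, and with a filter of 5 RPKM 6 SAUR genes fell and the median was -0.21. Of 17 kept Aux/IAA repressors 5 fell and none rose, with IAA1 (-0.92) and IAA2 (30.9 to 20.3 RPKM, -0.60) lowest in the authors' deposited table. Of 14 kept auxin synthesis and transport genes 2 fell, the importer AUX1 (-0.57) and the exporter PIN3 (-0.37) in the authors' deposited table, and none rose. Of 11 kept GH3 enzymes, which conjugate hormones, 1 fell (9.09%) and none rose, with a median of -0.01. The lower gene was BRU6 (-1.14 in the authors' deposited table). Among the expansins, which loosen walls, EXPA8 (58.6 to 27.7 RPKM, -1.08) and EXPA1 (147 to 76.6 RPKM, -0.94) fell, while EXLB1 (1.31) and EXPA15 (0.55) rose in the authors' deposited table. Of 10 brassinosteroid genes 3 fell and none rose, each by less than 0.6 in the authors' deposited table.

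Aquaporins, the membrane channels for water, fell in 9 of 25 kept cases and rose in none, with a median of -0.33, and their summed level went from 3343 to 2500 RPKM. The root tonoplast channel TIP2-3 fell from 7.10 to 2.59 RPKM (-1.46), PIP2E from 114 to 65.4 RPKM (-0.80) and GAMMA-TIP from 419 to 283 RPKM (-0.57) in the authors' deposited table. Nuclear light-harvesting proteins of the photosystem antennae fell in 9 of 16 cases, with a median of -0.48. LHB1B1 fell from 606 to 178 RPKM (-1.77), and the strongly expressed LHB1B2 fell from 2329 to 1175 RPKM (-0.99) in the authors' deposited table. LHCB4.3, a variant antenna protein, rose from 43.7 to 75.9 RPKM (0.77 in the authors' deposited table). Several of these antenna genes are near-identical copies that may share reads. In hda6 11 light-harvesting genes rose and in hda6/ldl1/2 15 rose, with none lower in either and medians of 0.66 and 0.69. Nuclear photosystem subunits moved less in ldl1/2, with 2 of 35 lower, none higher and a median of -0.19, and none of 16 kept chlorophyll synthesis genes passed in either direction (median -0.05). Of 31 kept plastid-encoded genes 6 rose and none fell, with a median of 0.30, among them accD (0.215 to 1.43 RPKM, 2.73), psaC (1.16 to 6.98 RPKM, 2.51) and rpoC2 (2.19), all at low levels in the authors' deposited table. The 11 kept mitochondrial genes had a median of 0.29, and none passed the FDR in either direction. Plastid transcripts mostly lack poly(A) tails, and how much of them a library holds can depend on its preparation, whose part in these values was not tested.

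**Figure D4:**
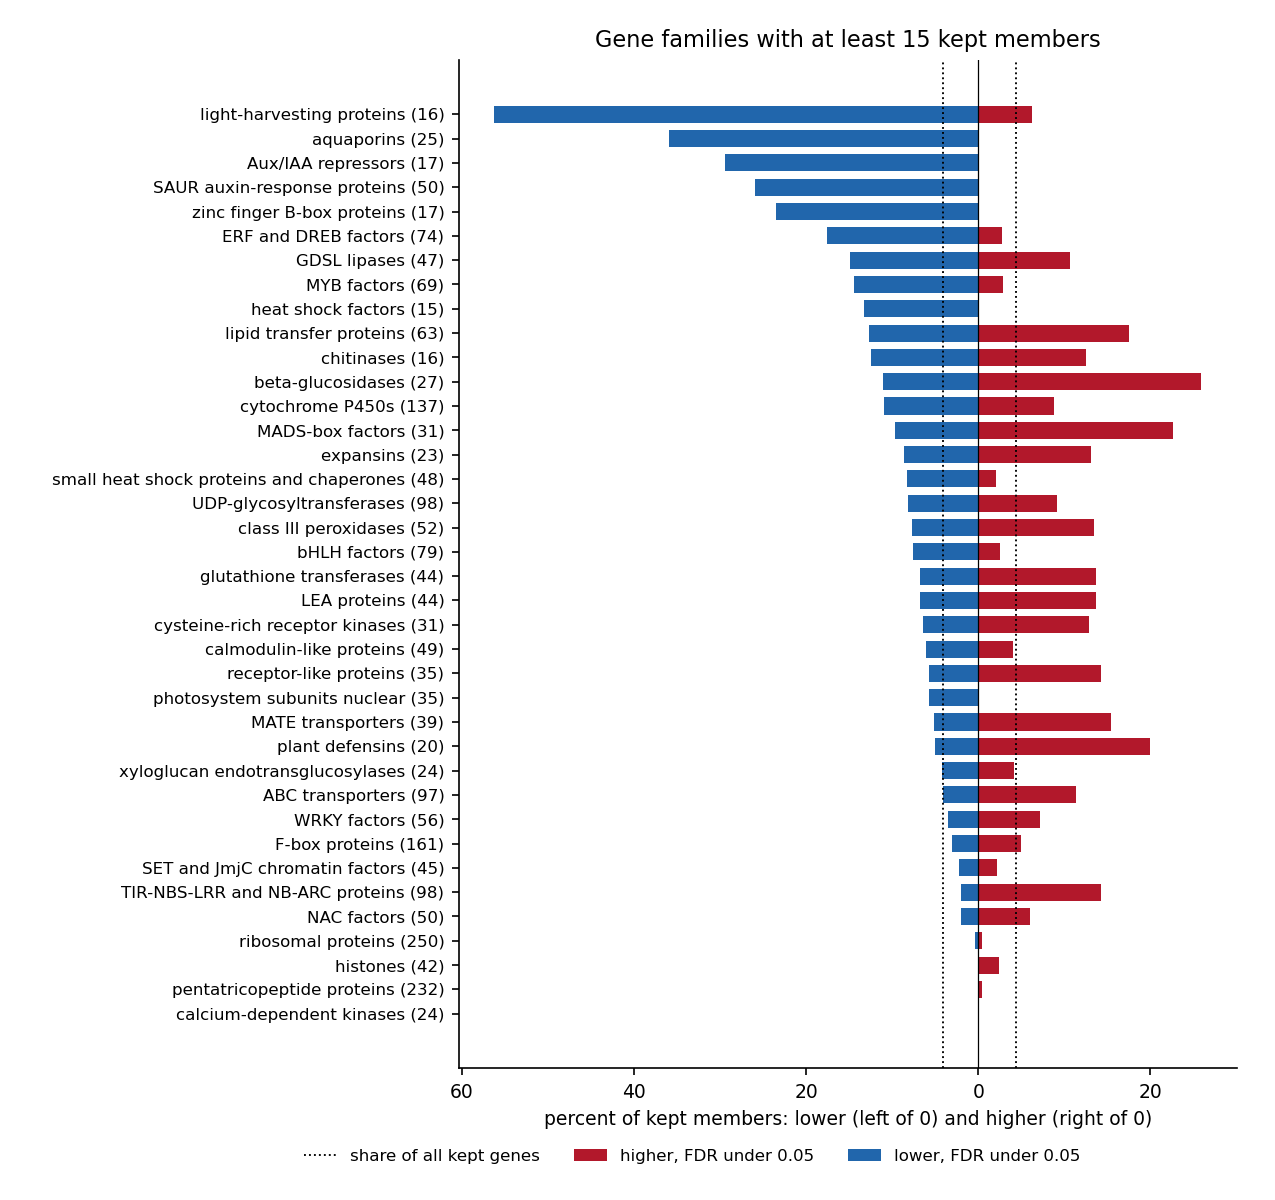
Percent of kept members lower (blue, left) and higher (red, right) at an FDR under 0.05 in families with at least 15 kept members, with the number kept in brackets. Dotted lines mark the 4.09% lower and 4.41% higher over all kept genes, and light-harvesting proteins, aquaporins, Aux/IAA repressors and SAUR proteins have the longest blue bars.

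Of 15 kept flowering repressors 3 rose and 2 fell, and the 3 that rose belong to the FLC clade of 6 genes. FLC, the repressor set by vernalization, rose from 1.34 to 4.31 RPKM (1.69, FDR 2.46e-10), MAF5 from 1.27 to 10.5 RPKM (3.05) and MAF4 from 1.04 to 3.20 RPKM (1.62) in the authors' deposited table. Their relatives MAF1 (-0.16), MAF2 (-0.07) and MAF3 (-0.15), and SVP (48.5 to 46.7 RPKM, -0.05), did not pass in the authors' deposited table. TEM1 (-0.47) and TEM2 (-0.97), repressors of FT of another family, fell in the authors' deposited table. FWA, which is silenced by DNA methylation in WT, lay below the level at which genes were kept, at 0.00654 and 0.117 RPKM (ratio 17.9, FDR 0.00392 in the authors' deposited table), with a counting interval of 3.90 to 858 for about 1.22 WT read pairs. Of the activators, FT, the mobile flowering signal, fell from 3.38 to 1.3 RPKM (-1.38, FDR 0.00540), and SPL3 fell from 14.1 to 5.44 RPKM (-1.37) in the authors' deposited table. SOC1 (-0.43) and AGL24 (-0.53) fell, while FUL rose from 2.49 to 4.83 RPKM (0.92) in the authors' deposited table. CO (1.04 to 0.646 RPKM, -0.69, FDR 0.209) did not pass in the authors' deposited table. None of 17 kept FRIGIDA, autonomous-pathway and vernalization genes passed, and their median was -0.05. Among the evening clock genes 3 of 15 fell, PRR7 (-0.50), PRR5 (-0.42) and LUX (-0.36) in the authors' deposited table.

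The FLC promoter is shown because FLC is the best known target of these enzymes, with CACGTG and the evening-element letters AAATATCT in capitals, in a window that also overlaps the annotated non-coding gene AT5G01675.
FLC (chr5:3179449-3179698, - strand): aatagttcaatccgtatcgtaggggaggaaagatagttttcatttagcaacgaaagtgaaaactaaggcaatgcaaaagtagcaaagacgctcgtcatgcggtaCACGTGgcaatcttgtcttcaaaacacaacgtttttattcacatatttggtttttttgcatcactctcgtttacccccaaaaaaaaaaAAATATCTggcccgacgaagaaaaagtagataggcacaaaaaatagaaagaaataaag
How these letters bear on the level of FLC was not tested.

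Immune receptor genes of the TIR-NBS-LRR and NB-ARC kind showed small rises. Of 98 kept members 14 rose (14.3%) and 2 fell (2.04%), against 4.41% higher and 4.09% lower among all kept genes. Their median was 0.15, against -0.0067 over all kept genes, and 71 of 98 values were above 0. No rise reached a log2 fold change of 1, the top being AT5G05400 (1.18 to 2.24 RPKM, 0.93) and AT1G58400 (1.77 to 3.34 RPKM, 0.92) in the authors' deposited table. The known receptors RPS2 (4.08 to 6.64 RPKM, 0.67) and RPS6 (0.36) rose, and AT4G16857 fell by 1.26 in the authors' deposited table. Genes of this kind lie in clusters of similar copies that may share reads, and with a filter of 5 RPKM 7 rose. In transport families 11 of 97 ABC transporters rose (11.3%), led by ABCB13 (0.99) and ABCC10 (2.69 to 5.38 RPKM, 0.97), and 4 fell (4.12%) in the authors' deposited table. Of 39 MATE transporters 6 were higher (15.4%) and 2 lower (5.13%). The lower shares of both families are near the 4.09% among all kept genes. Of 27 beta-glucosidases 7 rose (25.9%) and 3 fell (11.1%). The 137 cytochrome P450 genes held 12 higher (8.76%) and 15 lower (10.9%). The lower ones include CYP79F1, CYP79F2, CYP79B2 and CYP71A13, which are already counted in lists above. CYP708A2 of the thalianol pathway (19.0 to 46.4 RPKM, 1.25) was at their top in the authors' deposited table. Its neighbour THAS1, the thalianol synthase, named after its value was seen, rose from 11.4 to 38.9 RPKM (1.74 in the authors' deposited table). Both annotated cineole synthases (TPS-CIN), near-identical copies that may share reads, rose, at 0.91 and 0.88 in the authors' deposited table. The Polycomb gene MEA rose from 0.153 to 1.14 RPKM (2.85, FDR 1.79e-06) and the methyltransferase gene SDG16 fell by 0.94 in the authors' deposited table, the only 2 of 45 kept SET and JmjC genes to pass.

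Large housekeeping families moved little. Of 250 kept ribosomal protein genes 1 rose and 1 fell (median -0.01), and of 232 pentatricopeptide genes 1 rose (median 0.02). None of 24 calcium-dependent kinases passed the FDR. No gene passed among 27 kept cell division genes (median 0.09), 26 genes of DNA methylation and small-RNA silencing (median 0.05), 14 of the unfolded protein response (median 0.0036) and 9 of the DNA damage response (median 0.13). Within the silencing list MET1 (0.01), DDM1 (0.12), AGO4 (0.00) and ROS1 (-0.32, FDR 0.0899) were all short of the FDR in the authors' deposited table. A gene that misses the threshold is not shown to be equal in both groups.

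Markers of organs and cell types were counted beside these groups. Of 15 kept root markers 2 fell, TIP2-3 (-1.46) and the Casparian strip protein ESB1 (-0.64) in the authors' deposited table, and the summed level of the list was 110 RPKM in WT and 104 RPKM in ldl1/2. The root-hair genes EXPA7 (0.53) and PRP3 (0.36) and the endodermal CASP1 (-0.18) did not pass in the authors' deposited table. None of 12 stomata and trichome markers passed (summed level 56.7 and 52.0 RPKM). Of 9 shoot apex and leaf polarity markers FIL fell, by 0.43 in the authors' deposited table. In the floral list SEP1 rose by 1.27, and SEP3 (-0.64) and TPD1 (-0.48) fell in the authors' deposited table. Of 20 seed maturation genes only the oleosin OLEO4 was kept (2.68 to 1.71 RPKM, FDR 0.220 in the authors' deposited table). FUS3, a seed regulator below that level, had 0.0269 and 0.492 RPKM, a ratio of 18.3 (FDR 9.76e-07 in the authors' deposited table) with a counting interval of 6.77 to 95.9. What part differences in organ proportion have in the other lists was not tested.

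By position, the share of kept genes that rose ranged from 4.13% on chromosome 3 to 5.06% on chromosome 4, and the share that fell ranged from 3.73% on chromosome 5 to 4.45% on chromosome 1, with overlapping exact binomial intervals. Genes within 2 Mb of the gene-poorest window of each chromosome were at least 2-fold higher in 3.04% of cases (1.75 to 4.88%), against 1.45% (1.17 to 1.76%) of genes at least 10 Mb away. They were at least 2-fold lower in 2.28% of cases (1.18 to 3.94%), against 1.31% (1.05 to 1.61%) far away. By the FDR 5.31% rose and 4.74% fell near the window, against 3.98% and 4.38% far away, and each of these pairs of intervals overlaps. Genes next to each other sometimes moved together. There were 16 runs of adjacent kept genes that were higher by both rules (33 genes) and 18 that were lower (40 genes), a count made after values had been seen. The longest run held 5 thioredoxin-superfamily genes on chromosome 4, AT4G15660 to AT4G15700, ranging in log2 from -1.28 to -1.85 in the authors' deposited table. Other runs were made of members of the groups above, such as MYB29 with MYB76, CYP79F1 with CYP79F2, LSU1 with LSU3, MAF4 with MAF5 and IMA1 with IMA2. Several runs, the longest included, hold related genes whose reads may be shared. No number of runs to compare with was computed.

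**Figure D5:**
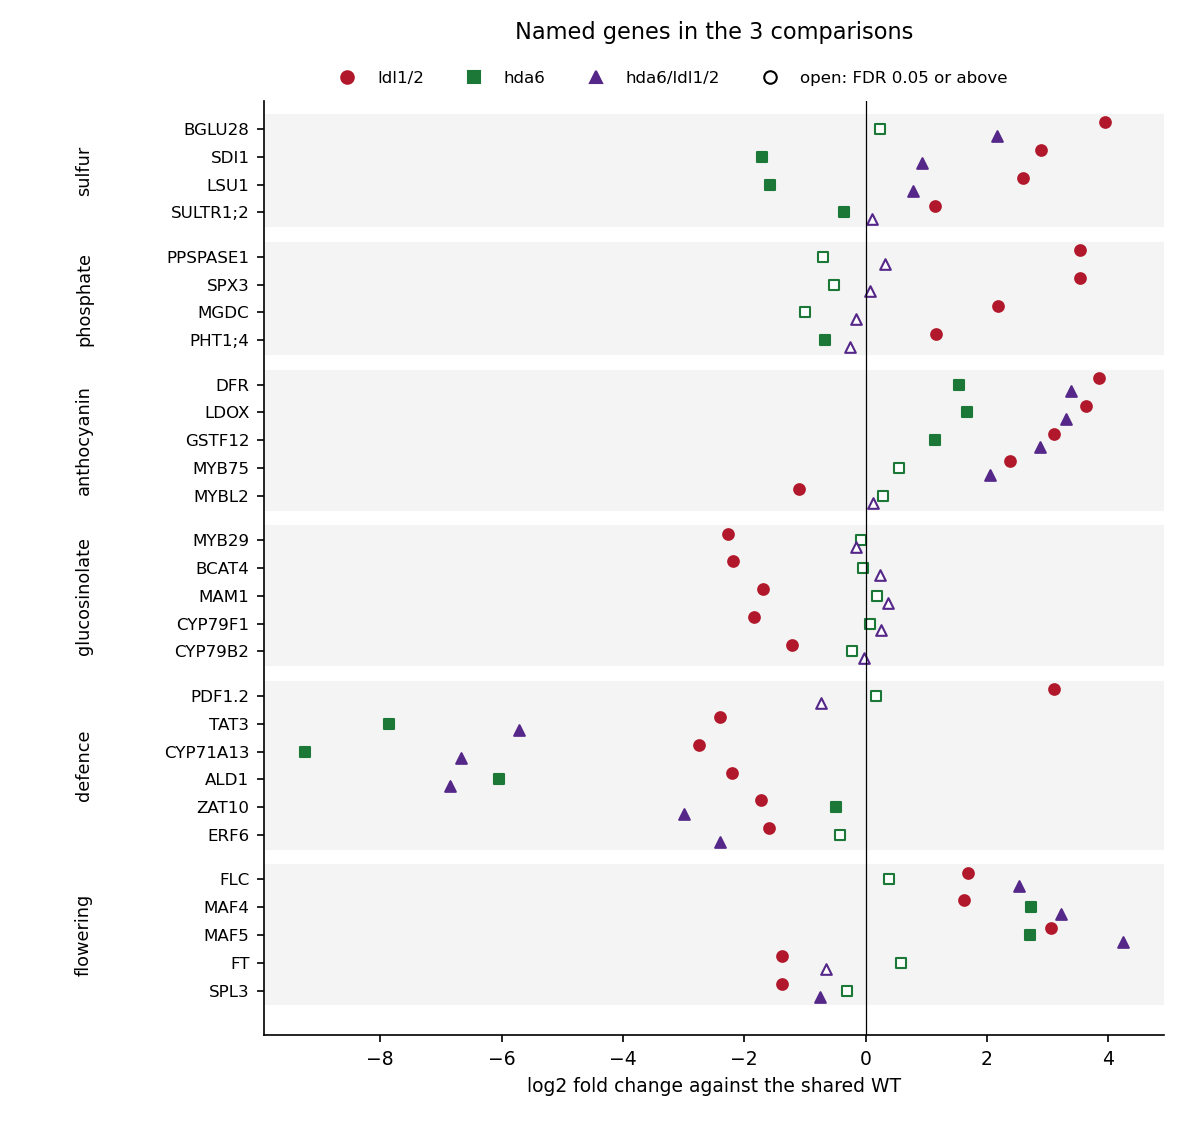
Deposited log2 fold changes of named genes in ldl1/2 (circles), hda6 (squares) and hda6/ldl1/2 (triangles), each against the shared WT, with open symbols for an FDR of 0.05 or above. The sulfur and phosphate genes lie to the right of 0 in ldl1/2 and to its left or near 0 in hda6, while TAT3, CYP71A13 and ALD1 lie left of 0 in all 3.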

How the data were processed

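RNA was measured in 14-day Col-0 seedlings. The authors deposited 1 comparison table for each mutant against WT, and per the file headers each table holds the larger group mean, a fold change as a score (negative where the mutant is lower), its log2 value, and p-values with FDR and Bonferroni forms. The values of the larger mean were read as RPKM from the deposited tables, and the authors' test is not named there. Bowtie and the TAIR10 build are named in the submitters' processing notes. The smaller mean was computed from the larger mean and the fold change, or read from another deposited table. No test was run here, since no values per library were used; deposited FDRs differed from Benjamini-Hochberg values by at most 5.23e-05. Genes without a fold change (9357 of 34262) and those under 1 RPKM were left out. Calls mean a deposited FDR under 0.05, and the size rule is a log2 fold change of at least 1. Library depths were fitted to the spacing of low means, with the number of libraries set beforehand at 2 for ldl1/2 and 3 for WT. On whole steps lay 99.4% of 483 ldl1/2 values and 100% of 408 WT values (tolerance 0.3%). On shifted steps it was up to 23.5% and 68.7%. The procedure was tested on simulated data, also with the number of libraries given. Strand use in counting is not stated, so overlapping and antisense genes cannot be told apart.

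Members and lists were chosen with earlier results of these data known (765 of 769 list entries matched). The genes named were the targets, the 12 highest and 12 lowest of at least 5 RPKM, up to 4 members per list and direction, and whole lists for glucosinolate, anthocyanin, ERF-branch and flowering genes; further members of the sulfur, phosphate, iron, hormone and marker lists, plastid genes and neighbours were named after their values were seen. Family matches for aquaporins, ribosomal and heat shock proteins were corrected after values were seen, as were the floor of 3 read pairs and the depth ranges. Alternatives changed the filter, pseudocount, size rule, FDR rule and centring. Python 3.11.15, pandas 2.3.3 and scipy 1.17.1 were used; exact binomial and Poisson intervals are at 95%.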

Additional observations from a re-analysis of the deposited data

Results flagged for a closer look

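Among the genes below 1 RPKM in both groups, which the comparisons above leave out, 99 of 5977 were higher (1.66%) and 22 lower (0.368%) at an FDR under 0.05 in the authors' deposited table, against 4.41% and 4.09% of the kept genes. Those with the smallest FDR among the higher ones were AT5G24275 (log2 fold change 3.91), BGAL7 (2.14), AT1G11070 (2.36) and AT1G78760 (3.67) in the authors' deposited table. Among the lower ones they were AT3G45700 (-2.48), AT5G28237 (-3.35), AT1G15150 (-1.65) and NAC045 (-1.67) in the authors' deposited table. The 4 higher genes had values above 0 in hda6/ldl1/2 too, against the same WT, with 4.71 for AT5G24275 and 4.57 for BGAL7 in the authors' deposited table.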

How the results depend on the processing

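With the filter at 5 RPKM in place of 1, genes higher by the size rule numbered 145 in place of 321 and genes lower by the size rule 150 in place of 276, and with the FDR as well 140 and 142. Without a filter they numbered 1591 and 1321. A size limit of 0.58 in log2 gave 962 and 693, and one of 2 gave 83 and 39. A pseudocount of 1 RPKM gave 165 and 150. The authors' Bonferroni p-values left 298 higher and 281 lower genes. At 5 RPKM the immune receptor genes that rose numbered 7, the SAUR genes that fell numbered 6 with a median of -0.21, and the late anthocyanin median was 2.53, or 1.60 with the pseudocount. At 5 RPKM the medians of the flavonol regulators (-0.25) and of auxin synthesis and transport (0.021) changed sign, as did that of the terpene synthases without a filter (-0.19), and for these the cause was not tested. Of 205 named genes 20 fell short of the size rule with the pseudocount and 2 with the plain ratio of means. Placing genes at 0 at their bound was chosen after seeing the data. No paired analysis was possible because the tables hold no values per library, and for the same reason no library could be left out in turn. Low read numbers limit genes near 1 RPKM most.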
